A study of Homo sapiens with 7 samples.

Results

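NFE2L2, KEAP1 and 8 genes of the glutathione, thioredoxin and quinone systems were followed through 7 cultures of HT1080 cells, an established human fibrosarcoma line. The genes were NFE2L2, KEAP1, NQO1, GCLC, GCLM, GSR, TXN, TXNRD1, SRXN1 and PRDX1. Every probe set that the array platform's annotation assigned to 1 of them alone was taken, which gave 21 of the 54675 probe sets on each array. A further probe set names NFE2L2 together with another gene and was left out.

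Each culture was read on 1 array and differed from the others by what was added. One received 5% serum from patients treated with pycnogenol, an extract of pine bark, and one 5% control serum, both for 2 h. Others received 2195 ng/ml of resveratrol, 11.25 ng/ml of catechin, 6.25 ng/ml of epicatechin or 6.25 ng/ml of taxifolin, also for 2 h. The last was untreated. All cells were HT1080 grown in medium with 10% foetal bovine serum, and the medium of treated wells was changed a day after plating. The labels do not say whether the untreated well had this change or a solvent, nor whether the new medium held bovine serum. Comparisons with the untreated array can hold these steps besides the compound or serum.

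NFE2L2 encodes NRF2, a transcription factor that turns on genes against oxidants and reactive chemicals. KEAP1 binds NRF2 and, with the CUL3 ubiquitin ligase, has it degraded; oxidants and many plant phenols can modify KEAP1 cysteines, after which NRF2 builds up and binds antioxidant response elements together with a small MAF protein. Its targets include both subunits of the ligase that starts glutathione synthesis, the reductase that keeps glutathione reduced, the thioredoxin and peroxiredoxin proteins, and the quinone reductase NQO1.

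The core letters of that element, TGACNNNGC, were searched on both strands in the 250 bases before the annotated start sites in RefSeq (build GRCh38.p14). The first letters, TGAC, also begin the AP-1 site TGACTCA, so the 2 motifs can overlap. Of 35116 windows of all genes, 10.9% held the core. For the members, 8 of 10 had a window, and 4 of their 11 windows held it, in GCLM, KEAP1 and both start sites of TXNRD1. GSR and PRDX1 had no window. The 4 windows below are shown because GCLM, KEAP1 and SRXN1 had both serum arrays above all others and TXNRD1 did not. Capitals mark the core or its reverse complement, and each sequence runs 5′ to 3′ on the gene's strand.
GCLM, chr1:93909431-93909680, minus strand: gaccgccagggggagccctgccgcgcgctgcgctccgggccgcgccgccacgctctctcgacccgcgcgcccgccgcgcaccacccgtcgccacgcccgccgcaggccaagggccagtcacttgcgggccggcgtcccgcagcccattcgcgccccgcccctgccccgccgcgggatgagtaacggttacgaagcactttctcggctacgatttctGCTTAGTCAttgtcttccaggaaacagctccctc
KEAP1, second start site, chr19:10502772-10503021, minus strand: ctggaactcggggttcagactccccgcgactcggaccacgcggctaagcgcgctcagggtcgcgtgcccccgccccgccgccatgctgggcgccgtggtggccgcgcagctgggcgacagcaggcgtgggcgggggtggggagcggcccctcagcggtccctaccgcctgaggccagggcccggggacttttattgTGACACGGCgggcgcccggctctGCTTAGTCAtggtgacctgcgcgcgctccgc
SRXN1, chr20:653201-653450, minus strand: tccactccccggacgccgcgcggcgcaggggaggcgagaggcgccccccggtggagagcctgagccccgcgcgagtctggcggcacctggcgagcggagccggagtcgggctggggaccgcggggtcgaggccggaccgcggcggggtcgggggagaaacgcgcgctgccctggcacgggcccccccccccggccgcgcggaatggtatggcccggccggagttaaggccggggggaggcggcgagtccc
TXNRD1, second start site, chr12:104286782-104287031, plus strand: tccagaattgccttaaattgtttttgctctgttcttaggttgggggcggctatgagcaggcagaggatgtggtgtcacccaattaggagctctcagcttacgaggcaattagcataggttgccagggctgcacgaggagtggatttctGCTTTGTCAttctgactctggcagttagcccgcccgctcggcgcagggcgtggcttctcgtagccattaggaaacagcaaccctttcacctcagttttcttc

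In GCLM the matched letters end 25 bases before the start site, and KEAP1 and GCLM share the same 9 letters, GCTTAGTCA. SRXN1 has no match in its window, which says only that these letters are not there.

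The values were MAS5 signals on a linear scale, each array scaled to a trimmed mean of 1000. Differences are given on the log2 scale, first array minus second. A gene was read from its brightest probe set by mean log2 signal, and 9888 of 19775 genes, those at or above a mean signal of 269, formed the background. All 10 members lay above that limit. There were no replicates, so no difference has a p-value or an error between replicates, and the share of all genes past 1.5-fold is given as background. That share depends on the signal level. Among genes above the 75th percentile of signal, which all 10 members passed, it was 0.445% to 1.33% for the 4 compounds against the untreated array and 4.27% for control serum against it. Over the 9888 background genes the SD of log2 differences ran from 0.323 to 0.387 between a serum array and one of the 5 others. Among the 5 it ran from 0.235 to 0.282. Median signals were 118 and 114 in the serum arrays and 121 to 136 in the 5 others.

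Of 7 mesenchymal and HT1080 markers 6 were measured, and all lay above the signal limit, with summed signals of 108138 to 121457. None of the 5 epithelial or 3 endothelial markers did. Of 8 blood markers 6 were measured and 1, HBB, passed the limit, at 522 with pycnogenol serum, 382 with control serum and 227 to 413 in the others. Summed blood marker signals were 783 with pycnogenol serum, 654 with control serum and 564 to 703 without it, while PTPRC read at most 79.7. The ratio of 3′ to 5′ signal of ACTB, which climbs as RNA degrades, was 2.82 with pycnogenol serum, 2.55 with control serum and 2.40 to 4.02 in the 5 others. Their part in the results below was not tested.

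Among the 10 members, GCLM and SRXN1 were furthest above the other cultures with serum. GCLM encodes the modifier subunit of glutamate-cysteine ligase, which makes the catalytic subunit more efficient. Its brightest probe set read 18387 with pycnogenol serum and 16445 with control serum. The 4 compound arrays read 13477 with resveratrol, 12664 with catechin, 12460 with epicatechin and 12188 with taxifolin, and the untreated array read 12297. Both serum arrays thus stood above all the others, and the mean log2 difference of the 2 from the 5 was 0.46, or 1.38-fold.

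The other GCLM probe sets gave the same order of serum and other arrays, with larger differences. The second probe set read 9872 with pycnogenol serum and 8446 with control serum, against 4863 to 6645 in the 5 others, a difference of 0.65. The third read 7643 and 7924 in these serum cultures, against 4019 to 5395, a difference of 0.71 or 1.63-fold. All 3 probe sets of the gene therefore separated serum cultures from the rest without overlap. They measure the same RNA in the same 7 extracts and are not replicates.

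SRXN1 encodes sulfiredoxin, which repairs overoxidised peroxiredoxins. It read 5835 with pycnogenol serum and 5882 with control serum. In the other cultures it read 3953 with resveratrol, 3277 with catechin, 3774 with epicatechin, 4550 with taxifolin and 3923 untreated. Serum cultures were again above all others, by a mean log2 difference of 0.60 or 1.51-fold, and the gene has 1 probe set. On brightest probe sets it was the only member at or past 1.5-fold in that comparison, where 1.5% of all genes were that much higher. It came to lie just under that size without the catechin array, at 0.54 (log2), and under quantile normalization and pairwise loess, at 0.58. Of the 9888 genes, 136 had a larger positive difference than SRXN1 and 300 a larger one than GCLM.

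**Figure D1:**
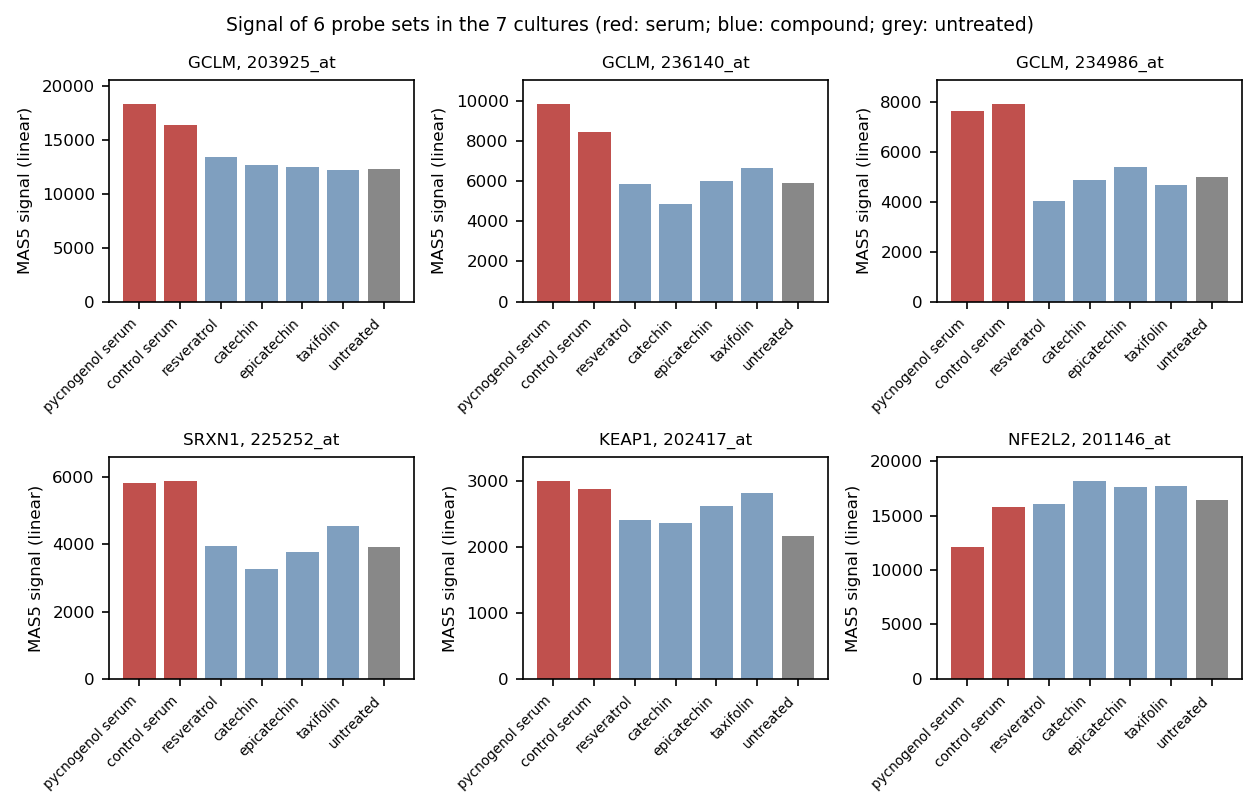
MAS5 signal (linear scale from 0) of the 3 GCLM probe sets, SRXN1, KEAP1 and the brightest NFE2L2 probe set in each of the 7 cultures, with 1 array per bar and no error bars because there were no replicates. Both serum bars exceed the 5 others for GCLM, SRXN1 and KEAP1, narrowly so for KEAP1. They lie below them for NFE2L2, narrowly so with control serum.

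With control serum alone against the untreated culture, SRXN1 differed by 0.58, just short of 1.5-fold, GCLM by 0.42 and KEAP1 by 0.41. On brightest probe sets no member was past 1.5-fold, and 7.83% of all genes were. The third GCLM probe set gave 0.66, past that size, and a dim second NFE2L2 probe set gave -1.95. The 10 members had a median of 0.10, and all genes a median of 0.0076. Above 0 were 8 of the 10 members and 51.3% of all genes. Centring each array on its median raises these differences by 0.17, so the signs depend on the scaling. The other members ranged from -0.38 for GSR to 0.28 for NQO1.

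The regulators differed in opposite directions with serum, and by less. KEAP1 read 2996 with pycnogenol serum and 2871 with control serum, against 2404, 2356, 2622 and 2821 with resveratrol, catechin, epicatechin and taxifolin and 2160 untreated. Serum cultures were the highest, but taxifolin came close, and the mean difference was 0.25 (log2) on the gene's only probe set. NFE2L2 read 12102 with pycnogenol serum and 15783 with control serum. The resveratrol, catechin, epicatechin and taxifolin cultures read 16080, 18174, 17632 and 17672, and the untreated one 16392. Here serum cultures were the lowest, at -0.31, a difference that was -0.12 without the pycnogenol serum array and -0.50 without the control serum array. The separation from the other cultures was lost with median centring, where control serum minus untreated was 0.11 instead of -0.055, and when all probe sets of a gene were averaged.

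The other NFE2L2 probe sets were dim, and on both the serum arrays overlapped the rest. Their mean serum differences were -0.77, in the direction of the first, and 0.30, in the other direction. The brighter of them read 231 with pycnogenol serum, 159 with control serum, 170 to 358 with the compounds and 616 untreated, so it was highest without any addition. The dimmer one read 130 to 247 in all arrays, under the limit of 269. The separation of serum cultures in NFE2L2 RNA therefore rests on 1 bright probe set. NRF2 is controlled largely through its protein, which an array does not measure.

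In the glutathione enzymes other than GCLM, serum and other arrays overlapped. GCLC, the catalytic subunit of the ligase, read 2576 with pycnogenol serum and 2863 with control serum, against 2536 to 2830 for the 5 others. Its mean difference was 0.027, and -0.12 on its second bright probe set. GSR, glutathione reductase, read 4085 and 3270 with these sera, within the 3194 to 4256 of the others, with a difference of -0.0008 and of 0.055 on its second probe set. The modifier and catalytic subunit genes thus gave different values with the same cultures.

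TXN and TXNRD1 differed little between serum and other cultures. TXN, the small redox protein thioredoxin, read 51559 with pycnogenol serum and 49170 with control serum, against 46798 to 54384, and TXNRD1, the selenoprotein that reduces it, read 28697 and 33482, against 30743 to 32722. In both, the serum arrays overlapped the others or lay on either side of them. The second TXN probe set read 1785 with pycnogenol serum and 1595 with control serum, against 1657 to 2103, a difference of -0.096. PRDX1, a peroxiredoxin that removes hydrogen peroxide, read 41537 and 40278, both above the 35294 to 38747 of the others, but by a mean of 0.11 (log2) only. No saturation marks were at hand for signals this high.

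NQO1, which reduces quinones by 2 electrons at once, read 9106 with pycnogenol serum and 10138 with control serum, against 8344 to 9779 in the others. Its mean serum difference was 0.097, and 0.13 and 0.19 on its other probe sets, of which 1 separated the serum arrays from the rest. On all 3 NQO1 probe sets the untreated array was the lowest of the 7. Those 6 differences of each probe set share 1 untreated array.

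In all, both serum arrays lay above the 5 others for 4 of 10 members, namely GCLM, SRXN1, KEAP1 and PRDX1, and for 13.5% of all genes; without the pycnogenol serum array it was 7 of 10, and 22.5% of all genes. They lay below them for 1 member, NFE2L2, and for 16.1% of all genes; without the control serum array it was 2, and 27.6% of all genes. Over the 18 member probe sets above the signal limit the numbers were 7 higher and 1 lower, where 12.5% and 14.8% of all such probe sets were. The members' median difference was 0.062, and that of all genes -0.010. The cultures on either side had different treatments and are not replicates, and this comparison was made with earlier results of these data known.

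**Figure D2:**
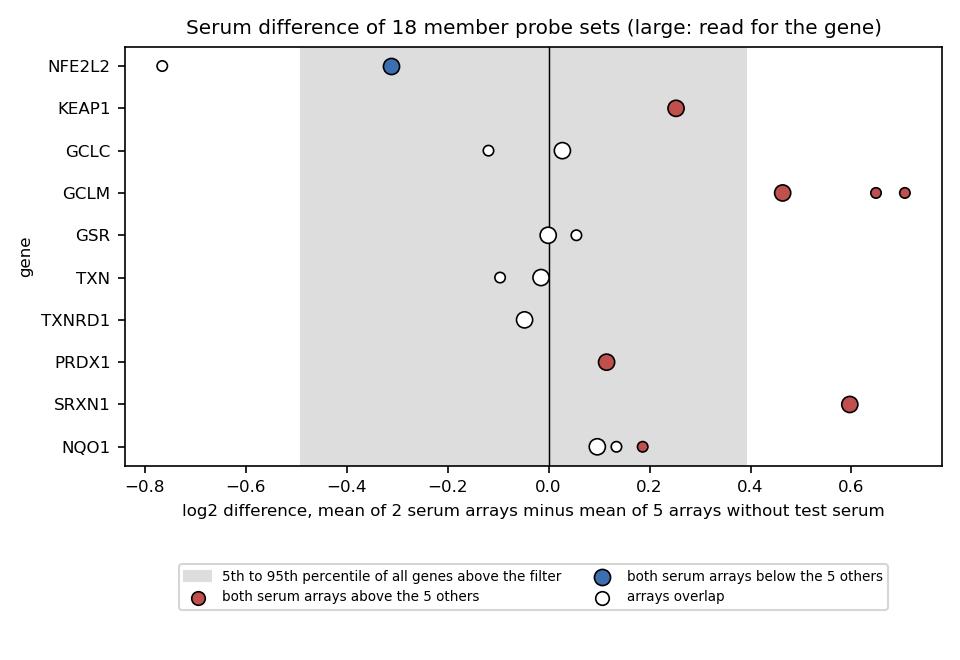
Log2 difference between the mean of the 2 serum arrays and the mean of the 5 arrays without test serum, for the 18 member probe sets above the signal limit; the grey band spans the 5th to the 95th percentile of all genes above the limit, from -0.49 to 0.39. The 3 GCLM probe sets and SRXN1 lie right of the band, and the dim second NFE2L2 probe set lies left of it with overlapping arrays.

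Serum from patients treated with pycnogenol was set against control serum, with 1 array each. Pycnogenol intake and any other difference between the sera cannot be told apart. No member differed by 1.5-fold, and 4.24% of all genes did. The members' median was 0.017 with 5 above and 5 below 0. All genes had a median of 0.0082, and 51.6% of them lay above 0. On brightest probe sets NFE2L2 was lowest at -0.38, from 12102 against 15783, and 7.02% of all genes had a lower difference. The other NFE2L2 probe sets, both dim, went the other way, at 0.54 and 0.51. GSR was highest on brightest probe sets, at 0.32, from 4085 against 3270, but its second probe set gave -0.080.

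GCLM differed by 0.16 between these sera and SRXN1 by -0.012, both small beside their differences of either serum from the other cultures. GCLM gave 0.23 and -0.052 on its other probe sets. TXNRD1 differed by -0.22, NQO1 by -0.15 with 0.25 on its second probe set, and GCLC by -0.15. Against the untreated array the pycnogenol serum array gave 0.58 for GCLM, 0.57 for SRXN1, 0.47 for KEAP1 and -0.44 for NFE2L2. On brightest probe sets there was again no member past 1.5-fold, and 10.0% of all genes were past it. The other GCLM probe sets gave 0.74 and 0.61, past that size, and the dim second NFE2L2 probe set gave -1.41.

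**Figure D3:**
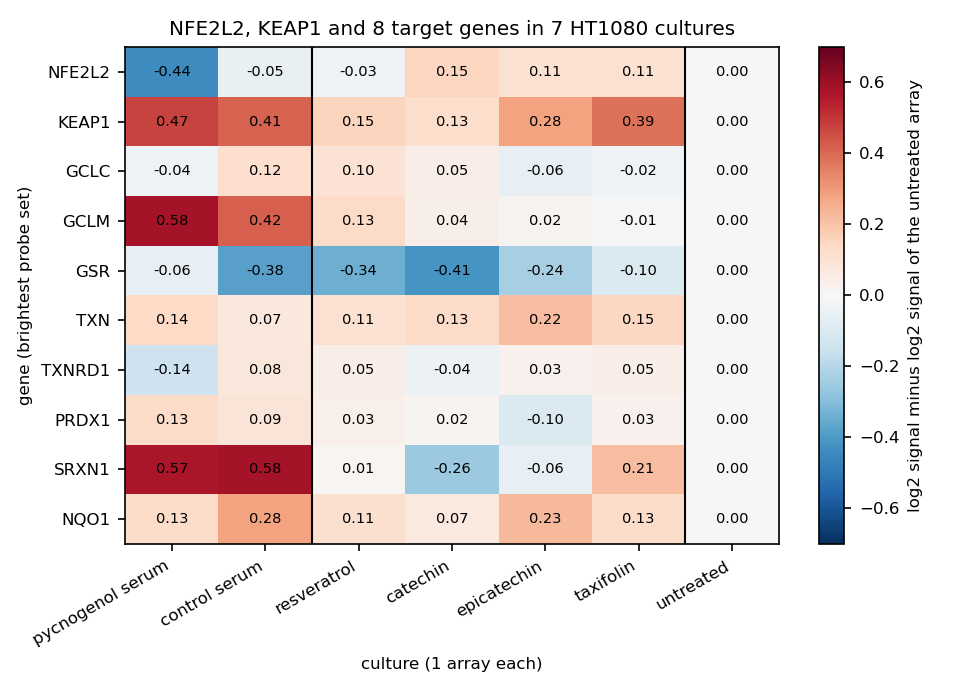
Log2 signal of each member's brightest probe set minus that of the untreated array, in the 7 cultures (1 array each), with pycnogenol and control serum on the left and the untreated array, 0 by definition, on the right. Values run from -0.44 for NFE2L2 with pycnogenol serum to 0.58 for GCLM and SRXN1 with serum, and GSR is below 0 in all 6 columns.

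On brightest probe sets, none of the 4 polyphenols gave a member at 1.5-fold against the untreated culture. The shares of all genes past that size were 4.46% with resveratrol, 3.55% with catechin, 2.82% with epicatechin and 3.30% with taxifolin. A count of 0 in 10 genes therefore lies near the background. The dim second NFE2L2 probe set was past that size with each compound, at -1.14, -1.85, -0.81 and -0.78 in the same order. Members' medians were 0.073, 0.045, 0.025 and 0.077 in the same order, and those of all genes 0.025, 0.035, 0.032 and 0.032. Within the 5 arrays without test serum, the members' brightest probe sets spanned a median of 0.20 (log2). All genes above the signal limit spanned a median of 0.32. The members were all among the brighter of these genes, of which a smaller share passed 1.5-fold with each compound. These medians are thus not matched for signal level and do not show that the members varied less than other genes as bright.

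Resveratrol was the only stilbene and the compound at the highest concentration. On brightest probe sets it gave its largest difference in GSR, at -0.34, and its largest positive one in KEAP1, at 0.15. GCLM differed by 0.13 with resveratrol, but by -0.016 and -0.32 on the other probe sets. NQO1 differed by 0.11, and by 0.27 and 0.31 on its other probe sets.

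Catechin gave GSR at -0.41 and SRXN1 at -0.26, from 3277 against 3923 untreated. Epicatechin, its stereoisomer, was given at a lower concentration, so values are set side by side without a comparison: GSR was at -0.23, SRXN1 at -0.056, KEAP1 at 0.28 and NQO1 at 0.23. With catechin KEAP1 was at 0.13 and NQO1 at 0.068. The second NQO1 probe set gave 0.22 with catechin and 0.0078 with epicatechin, and the third 0.27 and 0.28, so these NQO1 values depend on the probe set. GCLM was at 0.042 with catechin and 0.019 with epicatechin.

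GSR was below 0 with every addition on its brightest probe set, with 3194 to 4085 in treated cultures and 4256 in the untreated one. On the second GSR probe set the untreated array read 1205, inside the 1119 to 1410 of the treated cultures. That direction therefore depends on the probe set and on 1 shared untreated array.

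Taxifolin and epicatechin were given at the same mass concentration and time, and taxifolin carries a carbonyl group on its central ring that epicatechin lacks. This was the only matched pair of compounds. No member differed by 1.5-fold between them, where 3.47% of all genes did, and the members' median was 0.025. Among the brightest probe sets SRXN1 differed most, at 0.27, from 4550 with taxifolin against 3774 with epicatechin. GSR differed by 0.13, PRDX1 by 0.13 and KEAP1 by 0.11. NQO1 gave -0.10, 0.27 and -0.093 on its 3 probe sets, so its direction depended on the probe set. With 1 array each, no interval can be given, and the values do not show that the compounds act alike.

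On brightest probe sets SRXN1 had the largest difference from the untreated array of all members. Genes with a similar pattern were therefore sought for it. Likeness was the mean absolute difference between 2 genes' 6 log2 differences from the untreated array. The nearest of the 9888 genes was FERRY3, at 0.057. It read 4584 with pycnogenol serum and 4251 with control serum, against 2771 to 3698 with compounds and 3156 untreated. BCL11A at 0.093 and PALM2 at 0.094 followed. All such differences share 1 untreated array.

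Among NRF2's partners and the proteins that degrade it, 9 of 10 listed genes were measured and above the signal limit. With control serum against the untreated array, or pycnogenol serum against control serum, none was past 1.5-fold, where 7.83% and 4.24% of all genes were. Pycnogenol serum set against the untreated array gave MAFF alone past that size, at -0.66, where 10.0% of all genes were. This gene of a small MAF protein read 8473 with pycnogenol serum and 9310 with control serum, against 12313 to 13774 in the others, a difference of -0.56. Its second probe set gave -0.66, also without overlap. BACH1, a repressor at the same DNA elements, differed by -0.71 between taxifolin and epicatechin, from 2802 against 4583, and read 4145 in the untreated array.

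Of 23 other NRF2 targets, 17 were above the limit. HMOX1, heme oxygenase, was the only one past 1.5-fold with either serum against the untreated array, where 7.83% of all genes were with control serum and 10.0% with pycnogenol serum. It read 5155 with pycnogenol serum and 5892 with control serum, against 1436 to 2015, a difference of 1.63. Serum arrays were also above the rest without overlap for CBR1, a carbonyl reductase, and UGDH, which makes UDP-glucuronate; both were picked out after their values were seen. In all, 3 of the 17 were above the rest without overlap, where 13.5% of all genes were. That count lies near the background and is no result about the list. None of the 17 was below the rest without overlap, where 16.1% of all genes were, and the list median was 0.041.

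Of 18 other glutathione genes above the limit, none had both serum arrays above the rest and 6 had both below, with a list median of -0.10. Of all genes 13.5% were above and 16.1% below in that way. SLC7A11, the cystine transporter that supplies glutathione synthesis, read 5982 with pycnogenol serum and 8732 with control serum, against 13735 to 15535. It was counted in this list and not among the other NRF2 targets above, so their counts and median leave it out. Its difference was -1.004, and its other probe sets gave -0.98 and -0.53. CHAC1, which degrades glutathione, read 143 with pycnogenol serum and 1077 with control serum, against 1273 to 1852. The other 4, seen after the fact, were SLC3A2, GPX8, GSTK1 and GLRX. GSTM1 differed by -1.08 with taxifolin against the untreated array (278 against 588) on a probe set that can also bind related genes, and its other probe set read 289 with taxifolin and 329 untreated.

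Of 16 further thioredoxin and peroxiredoxin genes above the limit, 1 had both serum arrays above the rest and 3 had both below, which is below or near the 13.5% and 16.1% of all genes and so is no result about the list. SESN2, a stress-induced sestrin, read 816 with pycnogenol serum and 1346 with control serum, against 1546 to 2444, a difference of -0.94. The others, seen after the fact, were TXNL1, which was higher, and MSRA and CAT, catalase, which were lower. PRDX2, PRDX3, PRDX4 and PRDX6, named to illustrate the group, all differed by under 0.2 in size with control serum against the untreated array. SESN2 was the only gene of this list past 1.5-fold in the comparisons made here, among them control serum against the untreated array, where 7.83% of all genes were.

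**Figure D4:**
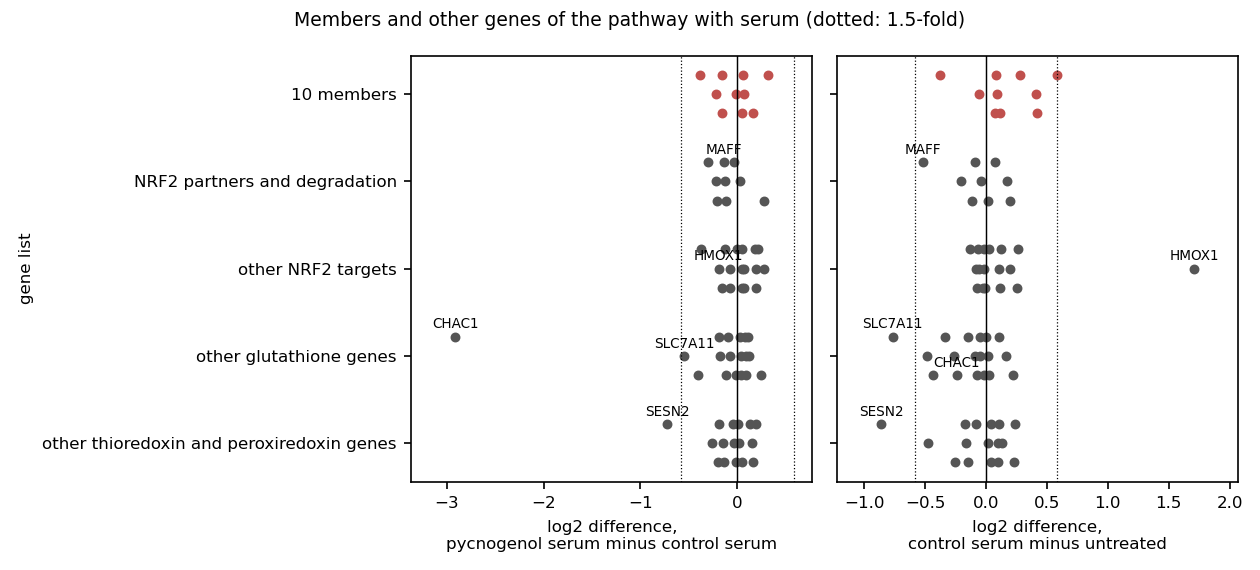
Log2 differences of the 10 members (red) and of the other pathway genes above the signal limit (grey), for pycnogenol serum minus control serum (left) and control serum minus untreated (right); each point is 1 gene read on 1 array per culture, and dotted lines mark 1.5-fold. HMOX1 lies at 1.71 and SLC7A11 at -0.77 in the right panel, CHAC1 at -2.91 in the left panel, and no member passes a dotted line.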

How the data were processed

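Gene expression was measured on Affymetrix arrays in 7 HT1080 cultures, 1 array per group. The deposited values are signal intensities on a linear scale, which the authors computed with MAS5 per the submitters' processing notes; version and detection calls are not given in the sources used here. No count underlies an intensity, so the number of arrays limits precision. Of the probe sets, 41091 had 1 gene in the platform annotation, 1801 several and 11777 none; symbols were updated with a RefSeq table (GRCh38). Signals under the 25th percentile, 34.9, were raised to it, then put on the log2 scale. A gene was read from its probe set with the highest mean. Thresholds were 1.5-fold and a mean log2 signal of 8.07. Python 3.11.15, pandas 2.3.3 and statsmodels 0.14.6 (loess span 0.3) were used. Simulated data with an added shift checked only the plain, quantile and loess differences. The choice of probe set, the floor, the filter and the overlap counts were not checked in that way.

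The members, lists and comparisons were chosen with earlier results of these data known. Named genes were all members, the 3 largest past 1.5-fold of each list and comparison, and the 3 profiles nearest to the member that differed most. Genes of the lists named outside that rule are marked in the text. Alternatives were quantile, loess and median scaling, floors, filters, other readings of probe sets, a 3-fold threshold, other reference arrays, and leaving out arrays.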

Additional observations from a re-analysis of the deposited data

How the results depend on the processing

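The members' median difference moved by less than the SD over all genes in the 8 comparisons recomputed under the alternatives. Pycnogenol serum against untreated was itself an alternative. That SD is of single genes and exceeds each of these medians, so a shift could hardly pass it. The median changed sign with resveratrol (-0.0186 to 0.0731), catechin (-0.0568 to 0.1126) and epicatechin (-0.0191 to 0.0997) against untreated. It also did with pycnogenol serum against control serum (-0.0376 to 0.1298), and kept its sign with control serum or taxifolin against untreated and taxifolin against epicatechin. With serum against the 5 others it ran from -0.0008 to 0.18. Over 18 settings of that comparison GCLM stayed between 0.38 and 0.61, SRXN1 between 0.54 and 0.72, KEAP1 between 0.21 and 0.37 and PRDX1 between 0.074 and 0.235, while NFE2L2 stayed between -0.50 and -0.12. NQO1 stayed between 0.019 and 0.22, and TXN, TXNRD1, GCLC and GSR changed sign between settings. Median centring shifts that comparison by 0.12 and puts the median of all genes at 0.11, so its values are relative to that. For the 4 compounds against untreated, the share of all genes past 1.5-fold, 2.82% to 4.46%, was 0.445% to 1.33% over genes past the 75th percentile of signal and 18.6% to 21.5% over all 19775.

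Members past 1.5-fold, 1 with serum against the others, were 0 under quantile normalization, pairwise loess and the 3-fold threshold and 2 when all probe sets of a gene were averaged; leaving out arrays gave 0 (without catechin) to 1. With control serum against untreated, 0 became 2 with median centring, and 1 with averaged probe sets or with the mean of the other arrays without test serum as reference. Catechin against untreated gave 1 with averaged probe sets, NFE2L2 at -0.74. Members with both serum arrays below the others, 1, were 0 with median centring and with averaged probe sets, and 1 to 2 (without control serum) when arrays were left out; those above were 4 to 7 (without pycnogenol serum). The cause was not tested. No paired analysis was possible because each group had 1 array.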
